A study of Homo sapiens with 6 samples.

Results

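Serum response factor and the contractile apparatus were examined in cells of U251, an established line from a human glioma, on 2 kinds of fiber. The list holds 41 genes: the factor SRF, its coactivators MRTFA and MRTFB, early response genes, and actins, myosins, tropomyosins, calponins and proteins that bind them. It was set by gene name, with earlier results of these data known. A gene entered when the platform annotation gave at least 1 probe set its symbol and no other, and the probe set with the highest mean over the 6 arrays stood for the gene. In this way 35 of the 41 genes were represented, out of 19775 genes on the array. ACTG1, EGR2, TPM3, FHL1, CAP1 and WDR1 had no probe set with that symbol alone and were not analysed as genes here. EGR3 and TPM2 did not pass the filter on dim probe sets, so 33 genes were tested among 12381.

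In 3 independent cultures the cells lay on highly aligned electrospun nanofibers of the polyester poly-caprolactone, and in 3 others on randomly oriented nanofibers of the same polymer. All cultures shared the cell line, the serum-containing medium and the time on the fibers of 24 h, and none received a further treatment. Each culture gave 1 Affymetrix array, read as log2 values after RMA, which corrects background, equalises the distributions of the arrays and summarises the probes of each set. The design asks which genes follow the topography under migrating glioma cells.

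SRF is a transcription factor that binds the CArG box, a DNA site in which a stretch of A and T bases lies between CC and GG. It works with 2 kinds of partner. The MRTF coactivators are held in the cytoplasm by monomeric actin and enter the nucleus when actin polymerises, which links SRF to cell shape and tension. Ternary complex factors instead link SRF to MAP kinase signals and the immediate early genes. Contraction itself depends on phosphorylation of the myosin regulatory light chain by kinases such as MYLK, opposed by a phosphatase that the MYPT subunits PPP1R12A and PPP1R12B direct to myosin. In gliomas, non-muscle myosin and actin serve the movement of the cell body.

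The array of aligned replicate 3 lay apart from the other 5, at 31.6 on a first principal component, where the others lay between -11.7 and 6.33. That component held 62.0% of the variance between the arrays. Results are therefore also given without it. Glioma markers were present: VIM read 14.21, 14.15 and 14.06 on aligned fibers and 14.26, 14.22 and 14.20 on random fibers, and NES and CD44 also stood far above the array medians of 5.63 to 5.66. GFAP, the astrocyte filament, lay on both sides of these medians, at 4.87 to 5.80 on aligned and 5.24 to 6.65 on random fibers. The 4 glioma markers tested had negative differences, from -0.81 to -0.09, with overlapping groups. S100B did not pass the filter. It read 4.97, 4.69 and 4.04 on aligned and 5.73, 5.76 and 5.60 on random fibers, without overlap. Of 6 smooth muscle and pericyte markers 3 were tested. The summed linear level of the 6 was 494 to 636 on aligned and 427 to 461 on random fibers, of which SMTN, itself a target of SRF, made the largest part. The smooth muscle regulator MYOCD and the markers LMOD1 and KCNMB1 did not pass the filter, and DES was at 5.51 to 5.74 over all arrays. RGS5, a pericyte marker, read 5.93 to 6.35 on aligned and 6.31 to 6.49 on random fibers, a difference of -0.30 that was negative within all 3 numbers. The 5 fibroblast markers, of which 4 were tested, summed to 1352 to 4187 on aligned and 3429 to 4890 on random fibers. Of the 4 tested, 3 had a negative difference and 1 a positive one. PDGFRA read 9.43, 8.77 and 5.95 on aligned and 9.87, 10.13 and 10.00 on random fibers. Its difference was -1.94, and -0.90 without aligned 3. The part of other cell types in the results below was not tested.

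No gene of the list passed the test over all genes. With limma and a Benjamini-Hochberg threshold of 0.05, 0 of 33 were called, where 0% of all 12381 genes were called, and the lowest adjusted p in the list was 0.463. At an unadjusted p under 0.05 in limma, 7 of 33 (21.2%) were higher on aligned fibers, where 4.72% of all genes were. FHL2, PDLIM7, IER3, MYH9, IER2, TPM4 and CNN1 were these 7. A further 3 of 33 (9.09%) were lower, where 5.81% of all genes were, namely EGR1, MYH10 and FILIP1L. The list was chosen with earlier results of these data known, so its shares, here and below, describe it and do not test it. CNN1, 1 of the 7, also passed the filter through the group where it is high. These counts moved with single arrays, as did the counts over all genes. Over all genes, 584 were higher and 719 lower with all 6 arrays. They were 350 and 458 without aligned 3, 311 and 419 without random 2, and 279 and 339 without random 3. Without aligned 1 they were 1227 and 1255, and without random 1 they were 510 and 681. Between 12279 and 12381 genes were tested in these fits. Without aligned 3, 4 of the 7 remained past the threshold (CNN1, FHL2, IER3 and PDLIM7) and 1 of the 3 (FILIP1L). Without random 2, 1 of the 7 remained (FHL2) and 0 of the 3, while MYH11 and MRTFA passed in their place. Without random 3, 2 of the 7 remained (FHL2 and PDLIM7) and 1 of the 3 (EGR1), joined by CALD1 and MYLK. Without aligned 1, 5 of the 7 remained, joined by SRF and PDLIM5, and the 3 lower genes remained and were joined by CNN3 and MYLK. Without random 1, 5 of the 7 remained and 2 of the 3, joined by MRTFB among the lower genes. RNA came from whole cultures, so fewer cells of a type and less RNA per cell cannot be told apart.

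The groups did not overlap in 10 genes. All 3 aligned values lay above all 3 random values in 7 of 33 (21.2%), against 8.71% of all genes, and below them in 3 of 33 (9.09%), against 9.33% of all genes, so the second share was that of the background. The median difference was 0.03 log2 units over the 33 genes and 0.01 over all genes. Without aligned 3 these medians were -0.03 and -0.00. The list therefore held differences in both directions, with a middle near 0.

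**Figure D1:**
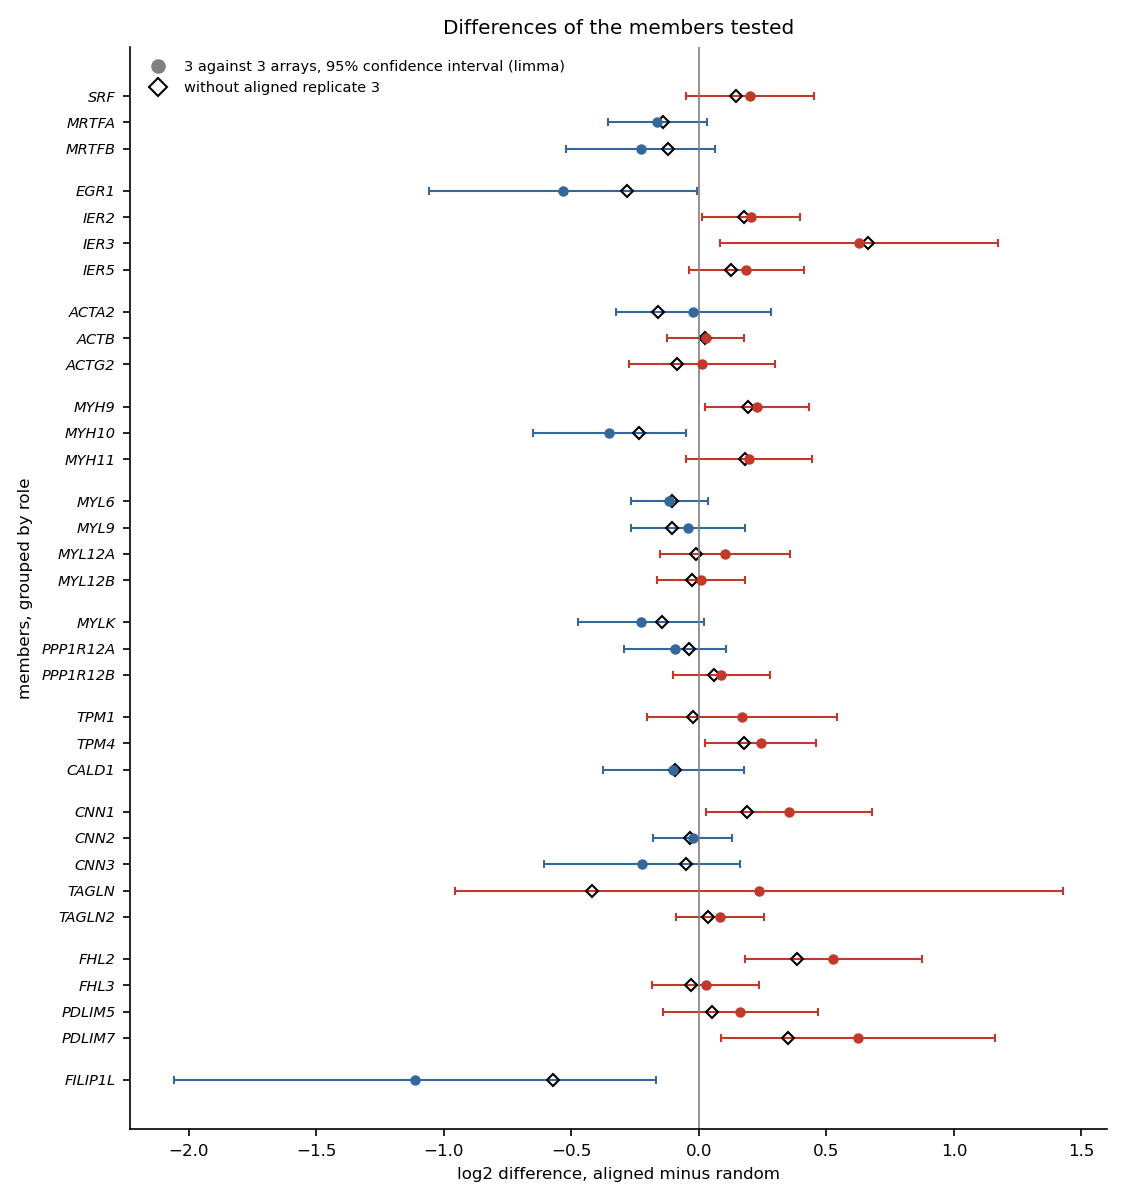
Log2 difference between aligned and random fibers (horizontal axis) for the 33 genes tested, grouped by role. Circles show the fit of 3 against 3 arrays with its 95% confidence interval in limma, red above 0 and blue below, and diamonds the difference without aligned replicate 3; most intervals cross 0, FILIP1L lies lowest at -1.11, and TAGLN lies at 0.24 with the array and at -0.42 without it.

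On the probe sets that stand for them, the factor itself and its coactivators did not separate the groups. SRF (probe set 202401_s_at) read 8.59, 8.82 and 8.87 on aligned fibers, against 8.61, 8.66 and 8.40 on random fibers. Aligned 2 and 3 were above all random arrays and aligned 1 was not, and the difference was 0.20 ± 0.11 (SE) with an adjusted p of 0.502 in limma. Both of its probe sets gave 0.20. MRTFA (probe set 212748_at), a coactivator released from actin, read 7.58, 7.62 and 7.54 on aligned fibers and 7.77, 7.61 and 7.84 on random fibers. Its difference was -0.16 ± 0.08 (SE), and its 4 probe sets past the filter disagreed, from -0.18 to 0.23. The probe set at 0.23 read 5.66 to 5.69 on aligned and 5.32 to 5.55 on random fibers. Its groups did not overlap, at a level near the array medians. MRTFB (probe set 218259_at) read 8.20, 8.28 and 7.91 on aligned fibers and 8.17, 8.45 and 8.46 on random fibers, a difference of -0.23 ± 0.12 (SE). MRTFB was at -0.12 without aligned 3, and SRF at 0.12 without random 3. Other arrays moved them the other way. SRF was at 0.29 without aligned 1, with an unadjusted p of 0.0264 in limma. MRTFB was at -0.32 without random 1, with an unadjusted p of 0.0412 in limma. On the probe sets that stand for them, the groups overlapped for all 3 genes. The 95% intervals were -0.05 to 0.45 for SRF, -0.36 to 0.03 for MRTFA and -0.52 to 0.06 log2 units for MRTFB. They show how large a difference these arrays could miss.

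Promoter sequences were taken from RefSeq (GRCh38.p14) for 35 of the 41 genes, in windows of 250 bases before to 50 after each annotated start. ACTB, TAGLN, MYL9, MYH11, IER3 and EGR3 were not in the table. A CArG box was found in at least 1 window of 11 of these 35 genes (31.4%), among them ACTG2, ACTG1, CNN2, MYLK, EGR2 and FHL1, and in 1.60% of the 27305 genes with a window. The box reads the same on both strands, so 1 search covered both, and no other motif was searched. The list was drawn up around targets of SRF and the contractile apparatus, so this share follows at least in part from its choice. Genes also differ in their number of windows. Counted by window, a box was found in 16.25% of the 80 windows of the list and in 1.29% of all 35116. A match describes these letters and is not evidence of binding here. The 180 bases before the start of the SRF gene are shown because the factor's own gene carries a pair of boxes, 30 and 10 bases before the start. Capitals mark the boxes.
SRF, chr6:43171089-43171268, + strand: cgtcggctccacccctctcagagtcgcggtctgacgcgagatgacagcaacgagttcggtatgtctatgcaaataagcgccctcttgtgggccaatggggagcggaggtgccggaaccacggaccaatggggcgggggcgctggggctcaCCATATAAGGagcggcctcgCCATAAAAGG

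Early response genes had differences of both signs. EGR1 (probe set 227404_s_at), a zinc finger factor induced within minutes by serum and MAP kinase signals, read 7.62, 7.82 and 6.96 on aligned fibers, against 8.06, 8.21 and 7.73 on random fibers. Each aligned array was below the random array of the same number, with differences of -0.44, -0.39 and -0.77, but aligned 2 was above random 3. The difference was -0.53 ± 0.23 (SE), or 1.45-fold higher on random fibers, with an adjusted p of 0.472 in limma. Without aligned 3 it was -0.28. Its 3 probe sets ran from -0.53 to -0.15, all of 1 sign. EGR3, a related factor, read 4.56 to 5.06 on aligned and 4.57 to 5.04 on random fibers, below the array medians.

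The EGR1 window is shown because this gene had a negative difference, where the other early genes of the list that were tested had positive ones, while carrying a pair of boxes, which begin 105 and 83 bases before the start. Capitals again mark the boxes.
EGR1, chr5:138465299-138465478, + strand: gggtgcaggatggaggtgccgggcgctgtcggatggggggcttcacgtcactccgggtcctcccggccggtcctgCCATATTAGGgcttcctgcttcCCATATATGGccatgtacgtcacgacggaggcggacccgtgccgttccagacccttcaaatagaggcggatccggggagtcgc

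The 3 immediate early response genes that share the prefix IER had positive differences. IER3 (probe set 201631_s_at), a stress-inducible regulator of survival, read 8.91, 8.39 and 8.54 on aligned fibers, against 8.45, 7.97 and 7.54 on random fibers. The aligned array was higher within each number, by 0.46, 0.42 and 1.00, yet the groups overlapped because aligned 2 lay below random 1. The difference was 0.63 ± 0.23 (SE), or 1.55-fold, with an adjusted p of 0.463 in limma. IER3 was at 0.66 without aligned 3 and at 0.41 without random 3, and it lost the unadjusted threshold without aligned 1, random 2 or random 3. IER2 (probe set 202081_at) read 11.38, 11.27 and 11.40 on aligned fibers and 11.21, 11.20 and 11.03 on random fibers, with a gap of 0.06 between the groups and a difference of 0.20 ± 0.08 (SE). With the replicate number as a block its unadjusted p was 0.0556 in limma. IER5 differed by 0.19 ± 0.10 (SE), with overlapping groups.

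**Figure D2:**
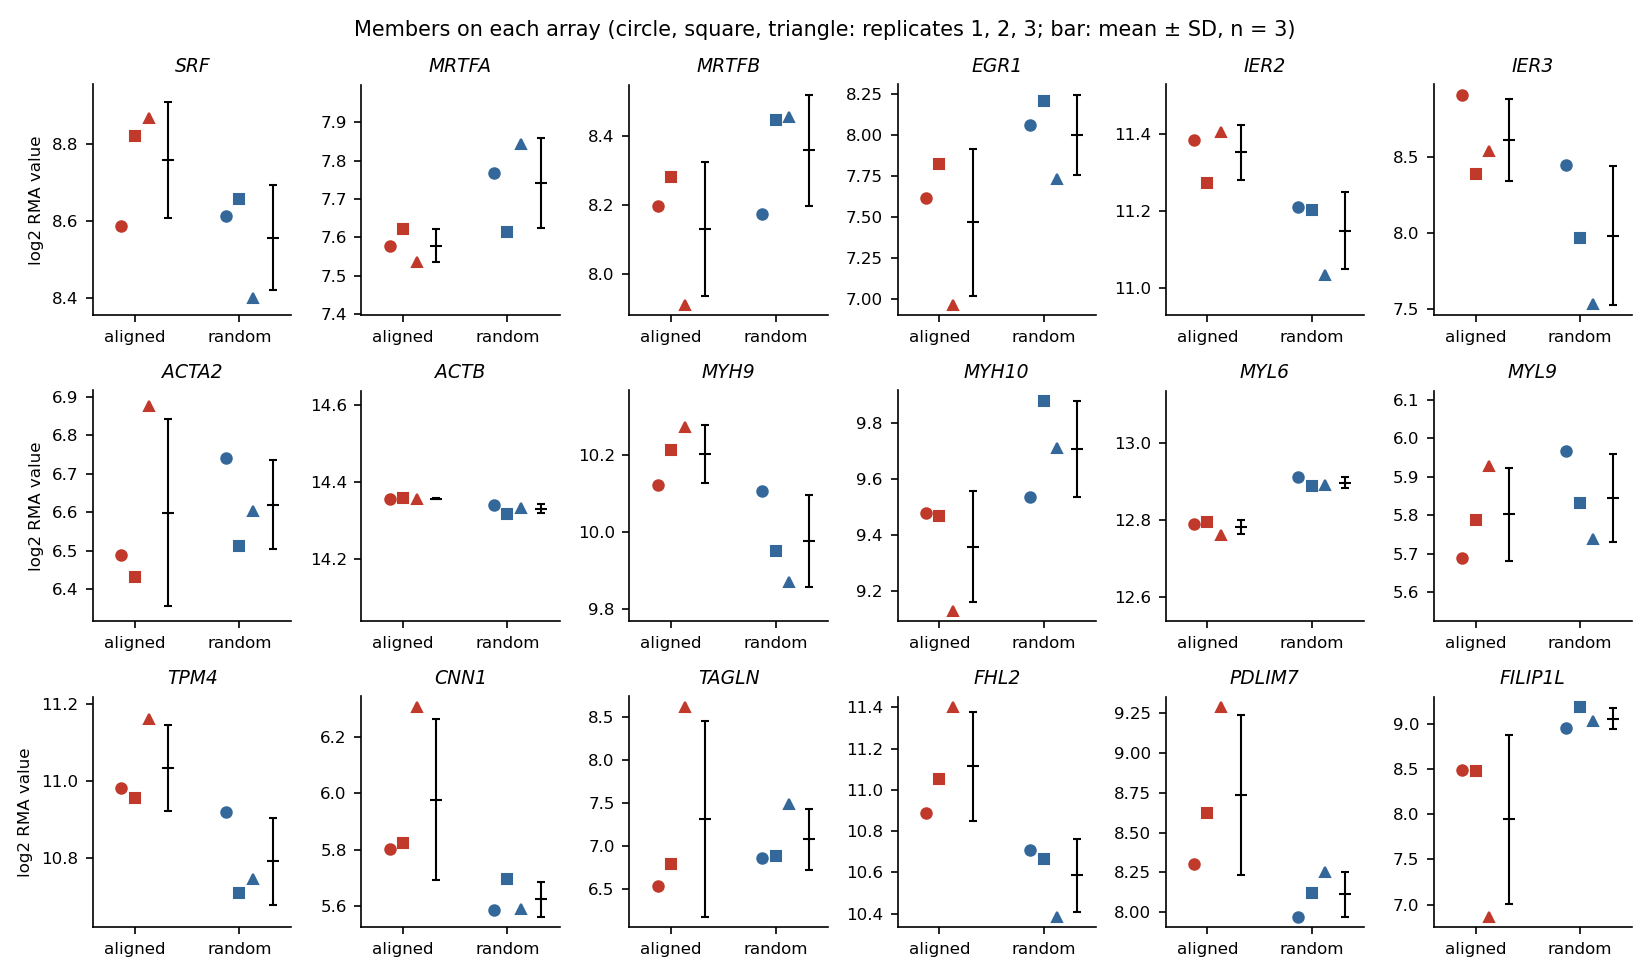
Log2 RMA values (vertical axes, each with its own range) of 18 genes on the 3 aligned arrays (red) and the 3 random arrays (blue), with circle, square and triangle for replicates 1, 2 and 3 and bars for mean ± SD. FHL2, PDLIM7, CNN1, MYH9, TPM4 and IER2 show the aligned arrays above the random ones, FILIP1L, MYH10 and MYL6 show them below, and in TAGLN the aligned 3 array stands at 8.62 above all others.

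Actin genes, which encode the filament itself, showed no separation beyond a few hundredths. Beta-actin, ACTB (probe set 213867_x_at), read 14.36 on each aligned array and 14.34, 14.32 and 14.33 on the random arrays. The groups did not overlap, but the gap was 0.015 log2 units and the difference 0.03 ± 0.06 (SE), with an adjusted p of 0.878 in limma. The highest value of any array was 14.33 to 14.37, so ACTB lay at the top of the scale, where the arrays can resolve little. Further readouts of actin stood lower on it. The 9 probe sets annotated to both ACTB and ACTG1 had differences of 0.03 to 0.06, and the 3 beta-actin control probe sets had differences of -0.00 to 0.05. The smooth muscle actin ACTA2 (probe set 200974_at) read 6.49, 6.43 and 6.88 on aligned fibers and 6.74, 6.51 and 6.60 on random fibers. Aligned 3 was the highest array and aligned 1 and 2 were the lowest, so that a difference of -0.02 ± 0.13 (SE) was -0.16 without aligned 3. ACTG2, the enteric smooth muscle actin, differed by 0.01 ± 0.12 (SE).

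Myosin heavy chains of the non-muscle type, the motors of cell contraction, had differences of opposite sign. MYH9 (probe set 211926_s_at), the heavy chain of myosin IIA, read 10.12, 10.21 and 10.27 on aligned fibers, against 10.11, 9.95 and 9.87 on random fibers. Every aligned array was above every random array, by a gap of 0.016, and the difference was 0.23 ± 0.09 (SE), or 1.17-fold, with an adjusted p of 0.472 in limma. MYH10 (probe set 212372_at), the heavy chain of myosin IIB, read 9.48, 9.47 and 9.13 on aligned fibers, against 9.54, 9.88 and 9.71 on random fibers. Every aligned array was below every random array, and the difference was -0.35 ± 0.13 (SE), or 1.28-fold higher on random fibers, with an adjusted p of 0.463 in limma. Its second probe set gave -0.30, also without overlap. Without aligned 3, MYH9 differed by 0.19 and MYH10 by -0.24, and under the replicate block the unadjusted p of MYH9 was 0.0603 in limma. MYH11, the smooth muscle heavy chain, differed by 0.20 ± 0.11 (SE) at 5.76 to 6.12 over all arrays, near the array medians. Whether MYH9 and MYH10 differ from each other in response was not tested.

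The light chains were close between fibers. MYL6 (probe set 212082_s_at), the essential light chain of non-muscle and smooth muscle myosin, read 12.79, 12.80 and 12.76 on aligned fibers, against 12.91, 12.89 and 12.89 on random fibers. All 3 aligned arrays were lower, with an SD of 0.02 on aligned and 0.01 on random fibers. The difference was -0.12 ± 0.06 (SE), or 1.08-fold higher on random fibers, with an adjusted p of 0.511 in limma. The shrinkage in limma sets the standard error of so even a gene above its own spread. A second MYL6 probe set past the filter gave -0.07, with overlapping groups. MYL9 (probe set 244149_at), a regulatory light chain of smooth muscle, read 5.69, 5.79 and 5.93 on aligned fibers and 5.97, 5.83 and 5.74 on random fibers. Those values lie near the array medians and overlap, with a difference of -0.04 ± 0.10 (SE). The other MYL9 probe set did not pass the filter. It read 3.83, 3.80 and 3.84 on aligned fibers and 3.86, 3.92 and 3.85 on random fibers, far below the array medians. The probe sets thus disagree on the level of MYL9, and whether the gene was expressed was not tested. The regulatory light chains MYL12A and MYL12B, which serve non-muscle myosin, differed by 0.10 ± 0.11 and 0.01 ± 0.07 (SE), and since the sequences of this pair are nearly identical, probes may not tell them apart.

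The light chain kinase MYLK read 10.61, 10.56 and 10.34 on aligned fibers and 10.79, 10.83 and 10.57 on random fibers. The aligned array was lower within each number, with differences of -0.18, -0.27 and -0.23, and the groups overlapped through aligned 1 and random 3. MYLK differed by -0.23 ± 0.11 (SE), with an adjusted p of 0.482 in limma, and its second probe set gave -0.34. With the replicate number as a block its unadjusted p was 0.014 in limma, and without aligned 3 it was at -0.15. The phosphatase subunits PPP1R12A and PPP1R12B differed by -0.09 ± 0.09 and 0.09 ± 0.08 (SE).

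Tropomyosins, which wrap the actin filament and set which proteins reach it, differed by gene. TPM4 (probe set 212481_s_at) read 10.98, 10.96 and 11.16 on aligned fibers, against 10.92, 10.71 and 10.75 on random fibers. All aligned arrays lay above all random arrays, by a gap of 0.04. The difference was 0.24 ± 0.09 (SE), or 1.18-fold, with an adjusted p of 0.472 in limma, and 0.18 without aligned 3. Among its 4 probe sets past the filter, 3 were positive, up to 0.29, and 1 was at -0.02. TPM1 differed by 0.17 ± 0.16 (SE), a value set by aligned 3: it read 10.52, 10.64 and 11.16 on aligned fibers and 10.65, 10.63 and 10.53 on random fibers, and without aligned 3 the difference was -0.02. TPM2 read 5.27 to 5.59 on aligned and 5.26 to 5.82 on random fibers and was too dim to be tested. Caldesmon, CALD1, which holds actin and tropomyosin together, differed by -0.10 ± 0.12 (SE), and 9 of its 11 probe sets were negative, within a range of -0.37 to 0.06.

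The TPM4 window is shown because its box lies far from the start, 173 bases before it, in a gene whose groups did not overlap. Capitals mark the box.
TPM4, chr19:16067358-16067537, + strand: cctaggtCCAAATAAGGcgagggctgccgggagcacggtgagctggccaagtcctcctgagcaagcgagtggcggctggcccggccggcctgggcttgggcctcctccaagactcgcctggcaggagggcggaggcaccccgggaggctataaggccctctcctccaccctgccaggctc

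Calponins and transgelins, which bind along actin filaments, included the gene with the widest spread. CNN1 (probe set 203951_at), the calponin of smooth muscle, read 5.80, 5.82 and 6.31 on aligned fibers, against 5.59, 5.69 and 5.59 on random fibers. All aligned arrays lay above all random arrays, the difference was 0.35 ± 0.14 (SE), or 1.28-fold, and the adjusted p was 0.472 in limma. CNN1 was above the array median on 3 aligned arrays and 1 random array, so it passed the filter through the group where it is high, and without aligned 3 it differed by 0.19. The related CNN2 and CNN3 differed by -0.02 ± 0.07 and -0.22 ± 0.16 (SE), and CNN3 was at -0.05 without aligned 3.

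TAGLN (probe set 1555724_s_at), a smooth muscle marker and classical target of SRF, read 6.54, 6.79 and 8.62 on aligned fibers and 6.86, 6.89 and 7.49 on random fibers. Aligned 3 was 1.13 log2 units above random 3, while aligned 1 and 2 were the lowest arrays. The difference of 0.24 ± 0.51 (SE) became -0.42 without aligned 3, so its sign rested on that array. A second probe set of TAGLN also had aligned 3 as the highest array, 1.45 above random 3, but its lowest array was random 2. It differed by 0.53, and by -0.30 without aligned 3. In the remaining probe set aligned 3 was not the highest array. That probe set differed by 0.22, with all aligned arrays above all random arrays. TAGLN2 differed by 0.08 ± 0.07 (SE).

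**Figure D3:**
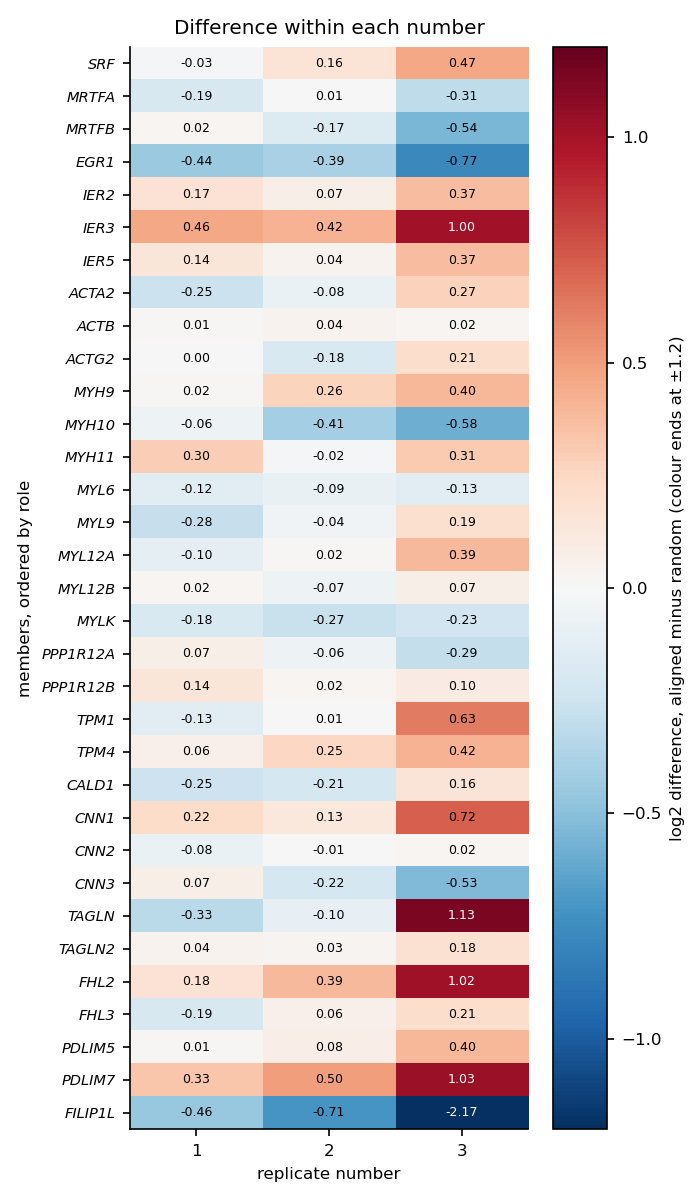
Log2 difference between the aligned and the random array of the same replicate number (columns 1, 2 and 3) for the 33 genes tested (rows, ordered by role), in colour and as printed values. Column 3, which holds aligned 3, has the strongest colours: in 27 of 33 genes the difference farthest from 0 is the one of number 3. The share of all genes for which this holds was not counted. Over all genes tested, aligned 3 also lay farther from the mean of the random arrays than any other array.

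LIM domain proteins, adaptors that sit on actin bundles and in focal adhesions, held the smallest unadjusted p of the list without a block. FHL2 (probe set 202949_s_at), a cofactor of SRF and other factors that moves between adhesions and nucleus, read 10.89, 11.05 and 11.40 on aligned fibers, against 10.71, 10.67 and 10.38 on random fibers. The groups did not overlap, with a gap of 0.18. FHL2 differed by 0.53 ± 0.15 (SE), or 1.44-fold, with an unadjusted p of 0.00845 and an adjusted p of 0.463 in limma. With the replicate number as a block its unadjusted p was 0.0293 in limma. Under that block EGR1 (0.00298), IER3 (0.00592), PDLIM7 (0.0089), MYLK (0.014) and FILIP1L (0.0252) had smaller values. Without aligned 3 FHL2 was at 0.38. It was also the 1 gene that stayed below an unadjusted p of 0.05 with any single array left out.

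PDLIM7 (probe set 203370_s_at), also called Enigma, which joins actin to signalling proteins through its PDZ and LIM domains, read 8.31, 8.62 and 9.29 on aligned fibers, against 7.97, 8.12 and 8.25 on random fibers. The difference was 0.62 ± 0.23 (SE), or 1.54-fold, with an adjusted p of 0.463 in limma, and 0.35 without aligned 3. Its 7 probe sets disagreed: 6 were positive, between 0.02 and 0.62, and 1 was at -0.09. Of the 2 whose suffix marks no shared sequence, 1 was at 0.076 and the other, the one at -0.09, stands for PDLIM7 when the rest are left out. PDLIM5, a relative, differed by 0.16 ± 0.13 (SE) on the probe set that stands for it, and 3 of its other probe sets differed by 0.24 to 0.28 with no overlap between the groups. FHL3 differed by 0.03 ± 0.09 (SE).

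Windows at a pair of annotated FHL2 starts are shown because this gene had the lowest p of the list without a block. Each window holds a box with different letters, 101 and 59 bases before its start. Capitals mark the box.
FHL2, upstream start, chr2:105438514-105438693, - strand: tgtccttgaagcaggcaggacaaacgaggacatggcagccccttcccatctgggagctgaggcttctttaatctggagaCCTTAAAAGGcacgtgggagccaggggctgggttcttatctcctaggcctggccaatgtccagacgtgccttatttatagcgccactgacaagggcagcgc
FHL2, downstream start, chr2:105399052-105399231, - strand: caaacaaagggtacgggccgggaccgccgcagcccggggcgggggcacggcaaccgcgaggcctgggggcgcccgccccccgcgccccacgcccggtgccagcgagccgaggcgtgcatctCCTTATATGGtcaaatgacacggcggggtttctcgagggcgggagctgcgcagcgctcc

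FILIP1L, a cytoskeleton-associated protein known to restrain migration of endothelial and tumour cells, had the largest difference of the 33 genes. Probe set 204135_at read 8.49, 8.47 and 6.87 on aligned fibers, against 8.95, 9.18 and 9.03 on random fibers. All aligned arrays were below all random arrays, by a gap of 0.46, and aligned 3 lay more than 1.5 log2 units below the other aligned arrays. The difference was -1.11 ± 0.40 (SE), or 2.16-fold higher on random fibers, with an adjusted p of 0.463 in limma. Without aligned 3 it was -0.57, with an unadjusted p of 0.000415 in limma because the remaining arrays lay close together. Its second probe set past the filter gave -1.29, without overlap.

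The FILIP1L window is shown because the gene with the largest difference, which is negative, also holds a box, 60 bases before 1 of its annotated starts. Capitals mark the box.
FILIP1L, chr3:99876174-99876353, - strand: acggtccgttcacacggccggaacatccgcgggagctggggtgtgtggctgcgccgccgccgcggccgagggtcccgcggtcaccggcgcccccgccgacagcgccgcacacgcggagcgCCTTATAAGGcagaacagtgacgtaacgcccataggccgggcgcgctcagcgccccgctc

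Probe sets of the same gene were compared as separate readouts of 1 transcript family. Of 19 genes with several probe sets past the filter, 14 had differences of 1 sign throughout. MRTFA, PPP1R12A, TPM4, CALD1 and PDLIM7 were the exceptions. Probe sets share the RNA of the same culture, so their agreement speaks of the hybridisation and not of the cultures.

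**Figure D4:**
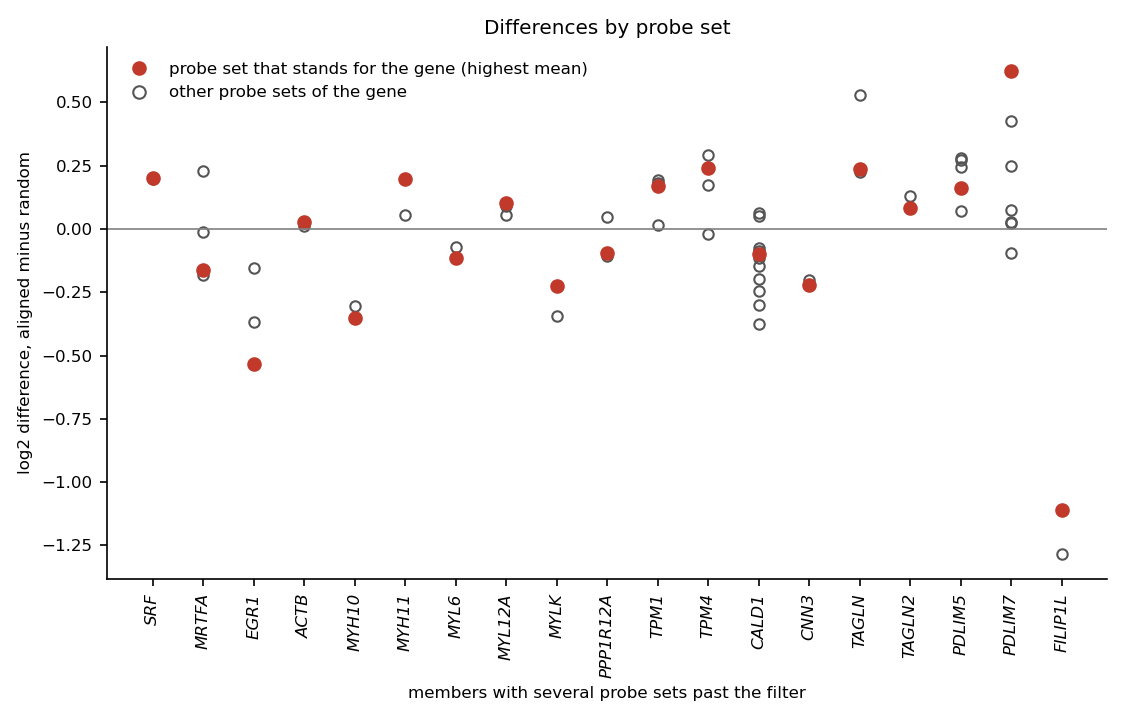
Log2 difference between aligned and random fibers (vertical axis) of each probe set past the filter, for the 19 genes that have several. Filled circles mark the probe set that stands for the gene and open circles the others; FILIP1L and EGR1 lie below 0 in every probe set, whereas PDLIM7 spreads from -0.09 to 0.62.

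The replicate numbers gave a further view of the spread. The aligned array was above the random array of the same number 3 times in 12 of the 33 genes, where 23.1% of all genes did so, and below it 3 times in 5, where 22% of all genes did so. The sign was mixed in 16. The median over the 33 genes was 0.01 for number 1, 0.01 for number 2 and 0.21 for number 3, where the medians over all genes were -0.00, 0.01 and 0.02. Without aligned 3 the difference changed sign in 6 genes: ACTG2, MYL12A, MYL12B, TPM1, TAGLN and FHL3. The share of all genes that changed sign was not counted.

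Other genes of the pathway were taken from lists of SRF partners, other immediate early genes and other cytoskeletal targets, 33 genes of which 25 were tested. At the adjusted threshold 0 of 25 passed. At an unadjusted p under 0.05 in limma, 4 of 25 (16.0%) were higher and 0 lower, against 4.72% and 5.81% of all genes. These lists too were chosen with earlier results of these data known, so the shares are a description. Without aligned 1, 7 genes were higher, and without random 2 or random 3, 2 were. Over all genes the higher counts moved the same way, as given above. Without random 1, 1 gene was lower, namely SCAI. Among 4 SRF partners tested, ELK1, ELK3 and ELK4, the ternary complex factors, differed by 0.01 ± 0.08, 0.12 ± 0.13 and 0.10 ± 0.08 (SE). SCAI, which represses MRTF activity, differed by -0.21 ± 0.13 (SE) and by -0.10 without aligned 3.

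Of 7 other immediate early genes tested, 7 had a positive difference, as had 52.5% of all genes. Higher at the unadjusted threshold was 1 (14.3%), against 4.72% of all genes. That gene, the stress factor ATF3, read 8.45, 8.62 and 9.77 on aligned fibers, against 8.37, 7.97 and 7.68 on random fibers, a difference of 0.94 ± 0.34 (SE). It was 0.53 without aligned 3, and it lost the unadjusted threshold without random 2 or random 3. FOSB, MCL1 and CCN1 differed by 0.41 ± 0.20, 0.15 ± 0.08 and 0.34 ± 0.22 (SE), and without random 3 FOSB was at 0.17 and CCN1 at 0.078. JUNB and NR4A1 differed by 0.01 ± 0.07 and 0.13 ± 0.11 (SE). Without aligned 3 JUNB was at -0.02 and NR4A1 at 0.02. Among the early genes tested in both lists, EGR1 alone had a negative difference.

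Of 14 other cytoskeletal targets tested, 3 (21.4%) were higher at the unadjusted threshold and 0 lower, against 4.72% and 5.81% of all genes. MICAL2, an enzyme that oxidises actin and thereby promotes SRF activity, read 11.05, 11.16 and 11.60 on aligned fibers, against 10.75, 10.56 and 10.19 on random fibers. Its difference was 0.77 ± 0.18 (SE), and it was 0.60 without aligned 3. SMTN, a smoothelin of contractile cells, differed by 0.59 ± 0.17 (SE), the adhesion protein ZYX by 0.30 ± 0.12 and the crosslinker ACTN1 by 0.24 ± 0.11. In MICAL2 and these 3 genes, 4 of the 14 (28.6%), all aligned arrays lay above all random arrays, against 8.71% of all genes. These 4 were named for the smallest p of the list, so their separation adds no support. Without aligned 3, SMTN was at 0.39, ZYX at 0.19 and ACTN1 at 0.15. ZYX kept the unadjusted threshold without aligned 1 and lost it without any 1 of the other 5 arrays.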

How the data were processed

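RNA of U251 cells from 3 cultures on aligned and 3 on random nanofibers was read on 6 Affymetrix arrays, grouped by sample title. The deposited table holds log2 values made by the authors with RMA, per the submitters' processing notes; no version of it is named there. Neither scanner output nor detection calls entered. The number of arrays limits the precision.

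Of 54613 probe sets without controls, 41091 had 1 gene symbol in the platform annotation, and 41037 of these matched RefSeq. Probe sets were kept where 3 or more arrays exceeded their own median. Each gene took its kept probe set with the highest mean. The comparison was aligned minus random, fitted on all 12381 genes in R 4.3.3 by limma 3.58.1 (lmFit, eBayes), two-sided, with Benjamini-Hochberg adjustment at 0.05. The code was tested on simulated data. Genes given with the value of every array were 8 chosen by name and those with an unadjusted p under 0.05 or without overlap. MYLK and TPM1, and the arrays of ATF3 and MICAL2, were shown after their values were seen. In each pathway list the 4 genes with the smallest p were named, and JUNB and NR4A1 were added after their values were seen. A further pathway list is not reported here. The members and lists were chosen with earlier results of these data known.

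Replicate numbers occur in both groups. Deviations from the group means correlated by 0.369, 0.322 and 0.109 for numbers 1, 2 and 3, above a limit of 0.1, which meets the rule for pairing. The comparison itself has no block, and the block was an alternative; aligned 2 and random 3 also correlated, by 0.188. Alternatives were the filter, centring, quantile normalization, a trend in eBayes, the replicate block, the mean over probe sets, leaving out shared-sequence probe sets and leaving out each array. Figures were drawn with matplotlib 3.10.9.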

Additional observations from a re-analysis of the deposited data

How the results depend on the processing

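No alternative called a gene of the list at an adjusted p under 0.05, within a range of 0.119 to 0.978 over the 14 alternatives for the 18 genes given with every array. With each array left out in turn, the number of genes higher at an unadjusted p under 0.05 lay between 2 and 7. The number lower lay between 1 and 5, and the median difference of the list between -0.03 and 0.08. Over all genes the numbers lay between 279 and 1227 higher and between 339 and 1255 lower. Without probe sets whose suffix marks shared sequence, 26 genes of the list were tested and 4 were higher. Of these, 3 were among the 7 and the other was TAGLN. FHL2, IER3 and MYH9, also among the 7, could not be tested there, since each has only 1 probe set and its suffix marks shared sequence. With the replicate number as a block, 5 were higher and 4 lower: MYH9 and IER2 lost the unadjusted threshold and MYLK gained it. The block changed no call at the adjusted threshold. The pathway lists had 2 to 7 genes higher and 0 to 1 lower with each array left out, and 2 higher without probe sets of shared sequence, alternatives chosen after seeing the data. Of 241 differences recomputed for the 18 genes, 233 kept their direction and 8 did not. ACTA2 was at 0.0097 with repeated quantile normalization, and with each array left out it lay between -0.16 and 0.063, above 0 without aligned 1, aligned 2 or random 1. MYL9 lay between -0.11 and 0.018, above 0 without aligned 1 or random 1, and TAGLN between -0.42 and 0.63, below 0 without aligned 3. PDLIM7 was at -0.095 without probe sets of shared sequence, where another probe set stands for the gene. The cause of the other reversals was not tested. Signal near the array median limits CNN1, MYL9, ACTG2 and MYH11, and the top of the scale limits ACTB. The spread between arrays may in part be technical, although the cultures are described as independent.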
